A study of Mus musculus with 4 samples.

Results

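The cytosolic ribosomal protein genes encode the proteins that, with the ribosomal RNAs, make up the large and small subunits of the ribosome outside mitochondria. Members were the protein-coding genes of the count table whose mouse symbol starts with Rpl or Rps and a digit, with Rplp0, Rplp1, Rplp2 and Rpsa. The S6 kinase genes (Rps6k), Rps19bp1 and pseudogenes were left out. The rule gave 89 of 78275 genes, 54 of the large and 35 of the small subunit, on 19 chromosomes. RNA had been sequenced from spermatogonia of mice at postnatal day (Pnd) 5 on the 129S1/Sv background, in 2 libraries from Sirt7-/- mice (labelled KO), which carry a deletion of the gene for the deacetylase SIRT7, and 2 libraries from wild-type (WT) mice. The cells came from digested whole testes by differential plating, which enriches for spermatogonia without sorting them. The study's methods describe the libraries of a genotype as biological replicates that were independent. How many animals went into each is given neither there nor in the labels.

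In mammals most ribosomal proteins are made from a single expressed gene, in matched amounts, and most are needed in growing cells. Their mRNAs are short and abundant, and many begin with a C followed by a run of pyrimidines, the 5′ terminal oligopyrimidine (TOP) motif, through which mTOR signalling sets their translation. The genome also holds many intronless copies of these mRNAs, most of them pseudogenes, and a few expressed paralogues, some of which are known from the germ line. SIRT7 is known as a sirtuin of the nucleolus, where ribosomes are assembled.

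Each library held between 22007504 and 22181066 counts, and 4.13 to 4.25% of them fell on mitochondrial genes. Sirt7 itself had 129 and 122 counts in the Sirt7-/- libraries, against 704 and 692 in the WT libraries (log2 fold change -2.47 ± 0.11, adjusted p = 3.63e-06 by edgeR). All 8 spermatogonial markers were detected, with a summed level of 1906 to 2112 CPM (counts scaled to a library of 1000000) in Sirt7-/- and 1940 to 2031 CPM in WT. Somatic markers were present too, with 1730 to 2162 CPM over 6 Sertoli cell genes in Sirt7-/- and 1832 to 1905 CPM in WT. Over 5 fibroblast genes the sum was 638 to 733 CPM in Sirt7-/- and 770 to 848 CPM in WT. The 6 erythroid markers summed to 1152 to 1536 CPM in Sirt7-/- and to 924 to 1017 CPM in WT, and for 5 of the 6 both Sirt7-/- libraries lay above both WT libraries. In bulk samples such as these, fewer cells of a type and less RNA per cell cannot be told apart.

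Start sites of members are shown here because the pyrimidine run is the sequence feature these mRNAs are known for. Promoters from RefSeq (GRCm38.p6, 250 bases before to 50 bases after each annotated start) were found for 66 of the 89 members. The windows below were placed in GRCm39 by exact match, and each runs from 10 bases before the start into the first 20 bases of the first exon. Capitals mark a C within 3 bases of the annotated start and the C and T bases that follow it, where there were at least 4.
Rps21, chr2:179899162-179899191, plus strand: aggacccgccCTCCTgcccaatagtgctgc
Rplp2, chr7:141027554-141027583, plus strand: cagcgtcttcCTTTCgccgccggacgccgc
Rps6, chr4:86775585-86775614, minus strand: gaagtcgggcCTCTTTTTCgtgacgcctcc
Rpl41, chr10:128385018-128385047, minus strand: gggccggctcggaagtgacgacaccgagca
Rpsa, chr9:119956822-119956851, plus strand: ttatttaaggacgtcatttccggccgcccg
The run was 9 bases in Rps6 and 5 bases in Rps21 and Rplp2, and no such run lay at the annotated starts of Rpl41 and Rpsa. Rps21 has 2 annotated starts, of which 1 had a run, and the start with the run is shown.

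A TOP start by this rule was present in 27 of the 66 members, or 40.9%, against 13.4% of 26959 other genes. Within the 300-base promoters, searched on both strands, CCGGAAG, the core of sites for ETS factors such as GABP, was found in 39.4% of the members, against 9.86% of the other genes. AAGATGG, the core of the YY1 site, was found in 15.2% of members and 7.26% of other genes. TATAAA was present in 10.6% of members and 15.7% of other genes, and CACGTG, the E-box read by MYC, in 9.09% and 8.09%. The ETS and YY1 motifs can overlap, since the first ends and the second begins with AAG, and 2 members held both. A match describes the letters in this window only. The 26 tested members with a TOP start by this rule had a median log2 fold change of 0.10, and the 39 without had 0.12. Since only annotated starts were read, a miss does not show that an mRNA lacks the motif.

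Levels between members were compared as CPM per kb of coding sequence, since the annotated 3′ ends of these genes differ widely in length. The median was 783 and 61 of the 89 members lay between 500 and 2000. The quartiles were 333 and 1186. Rpl41, whose product is the smallest ribosomal protein, was highest at 6329, followed by Rps24 at 1941 and Rplp1 at 1910, a protein of the acidic stalk that recruits translation factors. The rank of Rpl41 depends on this measure, since counts over its whole transcript of 582 bases were divided by a coding length of only 75 bases. Before that division Rpl41 was at 501 and 506 CPM in Sirt7-/- and at 456 and 436 CPM in WT. Small subunit genes had a median of 1022 per coding kb and large subunit genes 693. The 10 members with most counts, led by Rpl4 and Rpsa, held 28.8% of all counts on members.

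**Figure D1:**
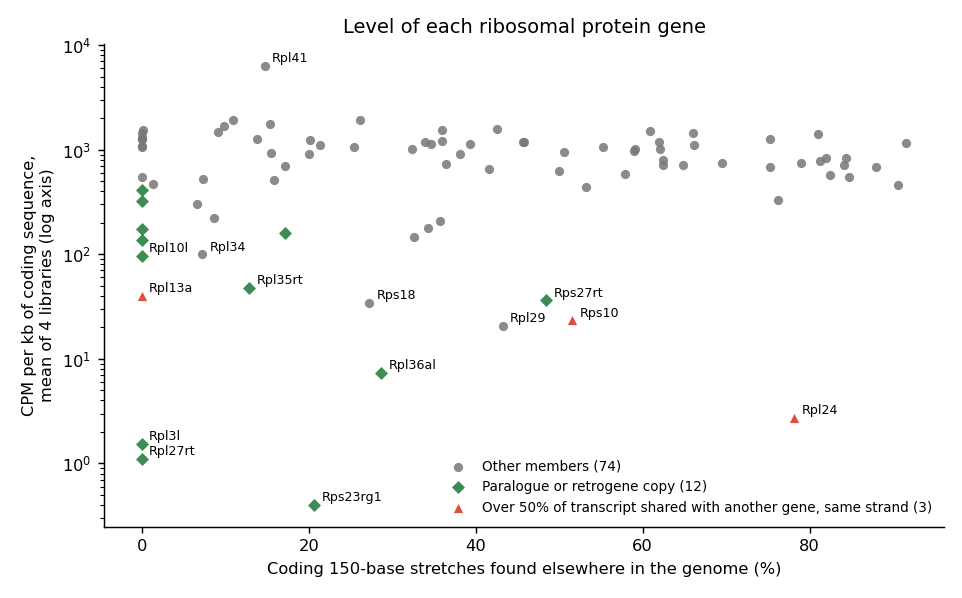
Level of each of the 89 members (vertical axis, CPM per kb of coding sequence, mean of 4 libraries, log axis) against the share of its coding 150-base stretches found elsewhere in the genome (horizontal axis, %). Most members lie between 500 and 2000, the 12 paralogue or retrogene copies lie at 416 or less, and the 3 genes that share over 50% of their transcript with another gene on the same strand lie at 40.0 or less.

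At the low end, 13 members were below 100 CPM per coding kb. Of these, 7 were paralogue or retrogene copies and 6 were the standard genes Rpl13a, Rpl24, Rpl29, Rpl34, Rps10 and Rps18, which are not counted as copies here. Rpl24, a large subunit protein gene, had 27 and 29 counts in Sirt7-/- and 26 and 32 counts in WT. Of its transcript 71.5% lies in exons of Gm28037 on the same strand, and 78.2% of its coding 150-base stretches occur elsewhere in the genome. Rps10 (53.6% within Gm49804, 226 to 269 counts) and Rpl13a (59.3% within Gm45713 and a microRNA gene, 417 to 600 counts) share exons in the same way. The partner genes themselves had at most 1 count in any library. How the counting treated reads that fit 2 genes or several places is not given in the sources used here, so the counts of these genes are uncertain as levels. Rpl34 and Rps10 are named here after their levels were seen. For Rpl34 only 7.20% of coding stretches occurred elsewhere and no exon was shared, and it was at 37.1 and 36.9 CPM in Sirt7-/- and 34.0 and 32.1 CPM in WT. Across all members, the median share of coding 150-base stretches with an exact copy elsewhere was 34.7%, and in 31 members it was over 50%. This scan covers the genome and does not see matches across splice junctions. Among the 31 members the median level was 783 per coding kb, and it was 471 among the 23 members at 10% or less. The latter include paralogue copies such as Rpl10l, Rpl39l and Rps4l. Paralogue or retrogene copies had a median of 72.2 and all other members of 928, so the effect of repeated sequence on levels was not tested by these medians.

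The comparison of Sirt7-/- with WT asks whether the loss of SIRT7 goes with a different amount of these mRNAs in spermatogonia. Summed over members, 3.74 and 3.61% of all counts fell on them in the Sirt7-/- libraries, against 3.46 and 3.37% in the WT libraries. The means were 3.67% ± 0.0937 in Sirt7-/- and 3.41% ± 0.0674 in WT (SD, n = 2 each), and the groups did not overlap. On the TMM scale this was a log2 ratio of 0.12. The gap between the lower Sirt7-/- and the higher WT library was about as wide as the gaps within the groups. Between single libraries, the median log2 ratio over the 88 members tested was 0.05 for Sirt7-/- 1 over Sirt7-/- 2, 0.07 for Sirt7-/- 2 over WT 1 and 0.05 for WT 1 over WT 2. With 2 libraries against 2, an exact permutation test over samples cannot go below a two-sided p of 0.333, and none was run on the sum.

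**Figure D2:**
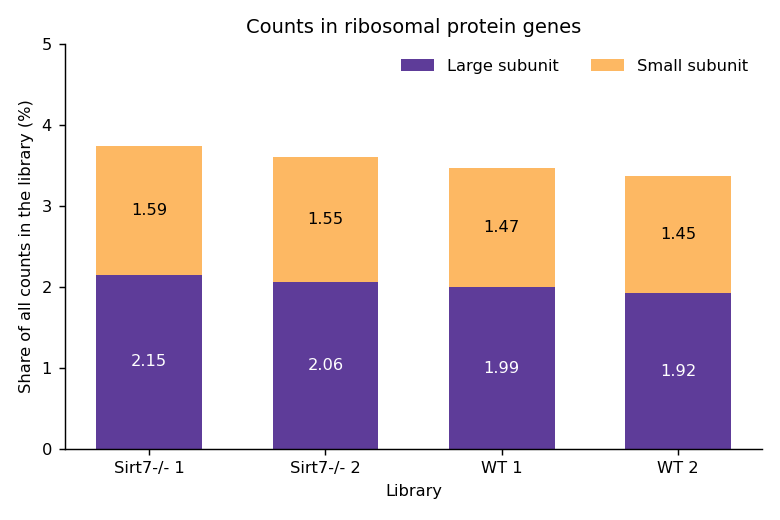
Share of all counts in each library that fell on large and on small subunit genes (%, stacked bars from 0). Together they come to 3.74 and 3.61% in the Sirt7-/- libraries and to 3.46 and 3.37% in the WT libraries.

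Gene by gene, 79 of the 88 members tested, or 89.8%, had a log2 fold change above 0 (Sirt7-/- over WT), whereas 50.6% of all 19736 genes tested did. The median was 0.12 with quartiles of 0.06 and 0.17, against a median of 0.0064 and quartiles of -0.07 and 0.08 among 9975 other genes at 10 CPM or more. Of those other genes, 85.6% were above 0 where the transcript was below 500 bases. The share was 79.4% from 500 to below 1000 bases and 70.1% from 1000 to below 2000. It was 56.5% from 2000 to below 4000 bases and 39.7% from 4000 on. The members had a median transcript length of 1073.5 bases. In 56 members both Sirt7-/- libraries lay above both WT libraries, in 0 below, and in 32 the groups overlapped. The same separation upwards was seen in 20.3% of all genes tested. Sirt7-/- 1 was the highest library for 59 members and WT 2 the lowest for 51. With edgeR's quasi-likelihood test, 0 members passed an adjusted p of 0.1, a threshold that 0.0861% of all genes passed in either direction and 0.0405% as higher in Sirt7-/-. At an unadjusted p under 0.05, 26 members were higher in Sirt7-/- and 0 lower, where 4.48% of all genes were higher and 4.14% lower. DESeq2 called 3 members, all higher, against 0.424% of the 11330 genes to which it gave an adjusted p, or 0.247% counting only those higher in Sirt7-/-. With the replicate number as a block, edgeR called the same 3, where 1.2% of all genes were called and 0.654% were higher. Since the members share the same 4 libraries, they are not independent observations of the genotype.

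The size of the difference varied with the library left out. Without Sirt7-/- 1 the median log2 fold change was 0.08 with 0 members called, and without Sirt7-/- 2 it was 0.15 with 15 called by edgeR, all higher, where 2.23% of all genes were called and 0.838% were higher. With a single Sirt7-/- library in that fit, the spread came from the 2 WT libraries alone, and the Sirt7-/- library was assumed to vary like them. The WT libraries were the most alike of all pairs, with a chi-square per gene of 3.48, against 7.59 between the Sirt7-/- libraries. For this reason the calls of that fit are not set against those of the full fit. Pairs across genotypes had 7.19 to 7.95, so over all genes the Sirt7-/- libraries differed from each other about as much as from the WT libraries. The median was 0.14 without WT 1 and 0.09 without WT 2, with 0 members called in either. The erythroid markers had the same order of libraries as the ribosomal protein genes, with 1536, 1152, 1017 and 924 summed CPM in Sirt7-/- 1, Sirt7-/- 2, WT 1 and WT 2. The fibroblast markers had the opposite order, with 638, 733, 770 and 848 summed CPM in the same libraries. Of the 5, Postn, Dcn and Col3a1 were called lower in Sirt7-/- by edgeR, among 9 genes called lower in all. In Col1a1 (log2 fold change -0.09) and Pdgfra (0.17) the genotypes overlapped. The spermatogonial, Sertoli cell, Leydig cell, peritubular myoid, endothelial and macrophage marker lists had neither order. The Leydig cell markers, for example, summed to 92.6, 83.0, 89.0 and 77.1 CPM in the same libraries. The part of any marker list in the ribosomal protein result was not tested.

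**Figure D3:**
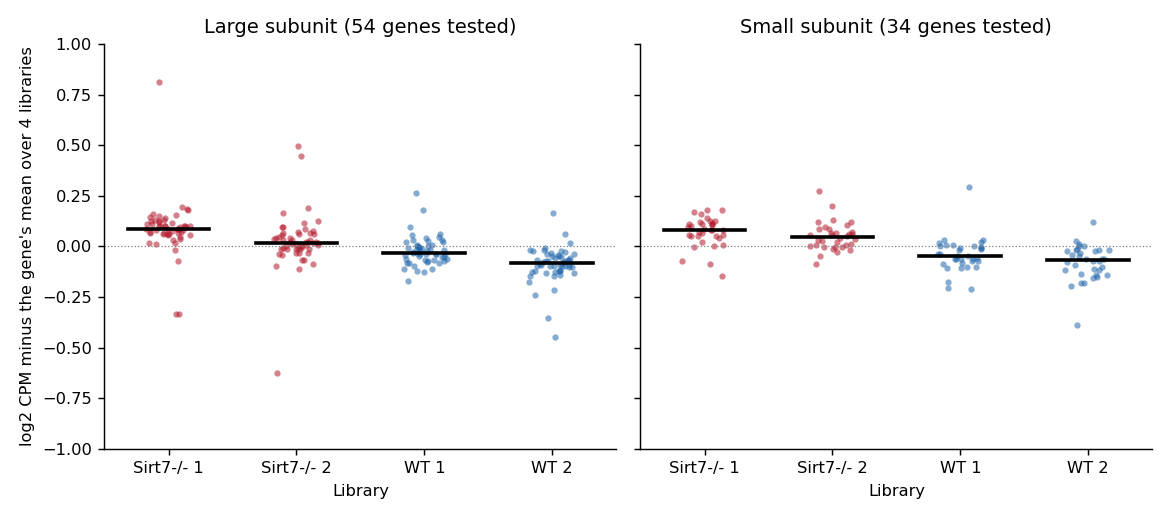
Deviation of each tested member from its own mean over the 4 libraries (vertical axis, log2 CPM) in each library, for 54 large and 34 small subunit genes, with bars at the medians. In both panels the medians of the Sirt7-/- libraries lie above 0 and those of the WT libraries below, and the clouds overlap.

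Large and small subunit genes had the same median log2 fold change, 0.12, with a difference (large minus small) of 0.0050. At an unadjusted p under 0.05, 12 of 54 large and 14 of 34 small subunit genes were higher in Sirt7-/-, and the difference between these counts was not tested. Over all genes tested, 4.48% were higher at that p. Both Sirt7-/- libraries lay above both WT libraries in 32 of 54 large subunit genes (59.3%) and in 24 of 34 small subunit genes (70.6%). The same was seen in 20.3% of all genes tested. Large subunit genes took 2.15 and 2.06% of counts in Sirt7-/- and 1.99 and 1.92% in WT. Small subunit genes took 1.59 and 1.55% in Sirt7-/- and 1.47 and 1.45% in WT. The ratio of large to small subunit counts was 1.35 and 1.33 in the Sirt7-/- libraries and 1.36 and 1.33 in the WT libraries, so that the groups overlapped.

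The 3 genes that DESeq2 called were small subunit genes Rps21 and Rps29 and the stalk gene Rplp2. Rps21, whose product lies on the solvent side of the small subunit, lies at chr2:179899114-179900249 (GRCm39) with 6 exons in its representative transcript, and no coding stretch of it was found elsewhere. It was at 298 and 318 CPM in Sirt7-/- and at 252 and 201 CPM in WT. The groups did not overlap, and the difference within WT was larger than that within Sirt7-/-. Its log2 fold change was 0.44 ± 0.09 (SE), with an adjusted p of 0.208 by edgeR and 0.00495 by DESeq2.

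Rps29, a zinc-binding small subunit protein gene at chr12:69204495-69205960, was at 263 and 277 CPM in Sirt7-/- and at 214 and 217 CPM in WT. Here the libraries of each genotype were close together and apart from the other genotype. The log2 fold change was 0.33 ± 0.06, with adjusted p-values of 0.161 by edgeR and 0.00762 by DESeq2, and 66.0% of its coding stretches have a copy elsewhere. Rplp2, which pairs with Rplp1 in the stalk, was at 662 and 693 CPM in Sirt7-/- and at 578 and 515 CPM in WT. Its log2 fold change was 0.31 ± 0.07 (adjusted p = 0.244 by edgeR and 0.0203 by DESeq2). It lies at chr7:141027274-141034167, and 21.3% of its transcript overlaps Gm72433 on the opposite strand, which counting without strand could not tell apart.

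The other stalk genes separated in the same direction without passing either test. Rplp1 was at 682 and 729 CPM in Sirt7-/- and at 603 and 598 CPM in WT (0.23 ± 0.06, adjusted p = 0.324 by edgeR). Rplp0, the stalk base, was at 227 and 221 CPM in Sirt7-/- and at 203 and 192 CPM in WT (0.18 ± 0.06).

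The most abundant members were nearer to 0. Rpl4, a core protein of the exit tunnel, was at 2064 and 1899 CPM in Sirt7-/- and at 2000 and 1827 CPM in WT, and its groups overlapped (0.05 ± 0.07). Rpsa, a small subunit protein also known as the laminin receptor, was at 1447 and 1291 CPM in Sirt7-/- and at 1389 and 1354 CPM in WT. Rps3, at the mRNA entry channel, was at 820 and 774 CPM in Sirt7-/- and at 770 and 796 CPM in WT. Neither Rpsa nor Rps3 separated by genotype. Rpl8 (0.08 ± 0.06) and Rps6, the substrate of S6 kinases (0.08 ± 0.06), had both Sirt7-/- libraries above both WT libraries by small margins, and Rpl3, which lies near the peptidyl transferase centre, overlapped (-0.01 ± 0.07).

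Genes with roles outside the ribosome were mixed. Rpl5 and Rpl11, which with the 5S RNA bind MDM2 and so stabilise p53, were at 0.13 ± 0.07 and 0.15 ± 0.06. Rpl11 was at 338 and 318 CPM in Sirt7-/- and 302 and 292 CPM in WT, and Rpl5 at 706 and 635 CPM in Sirt7-/- and 605 and 619 CPM in WT. For both genes the genotypes did not overlap. Rps19, which is mutated in Diamond-Blackfan anaemia, was at 0.08 ± 0.06. Rps27a, made as a fusion with ubiquitin, was at 523 and 583 CPM in Sirt7-/- and at 568 and 552 CPM in WT (-0.02 ± 0.07), with overlapping groups.

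Several genes named for the size of their fold change had few counts. Rpl27rt, an intronless copy, was at 0.864 and 0.319 CPM in Sirt7-/- and at 0.590 and 0.361 CPM in WT, so that its fitted value of 0.31 ± 0.51 carries no direction. The lowest fold change was that of Rps27rt, a further copy, at -0.15 ± 0.16. It was followed by Rpl36al (-0.08 ± 0.21), Rpl24 (-0.04 ± 0.28) and Rps27a. Rps23rg1, a retrogene at 0.402 CPM per coding kb, was the only member below the count filter. Rpl38, named here after its values were seen, had the largest spread within a genotype among members at 10 CPM or more, with 71.0 and 122 CPM in Sirt7-/- and 79.5 and 93.5 CPM in WT.

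Transcript length was examined because fold changes in these libraries fell with it. Among other genes at 10 CPM or more, the median log2 fold change was 0.14 below 500 bases, 0.10 from 500 to below 1000, 0.05 from 1000 to below 2000, 0.02 from 2000 to below 4000 and -0.03 from 4000 bases on. The Spearman correlation with length was -0.31 over those 9975 genes, which share the same 4 libraries. Ribosomal protein transcripts had a median length of 1073.5 bases, against 2756 over all genes tested. Members had medians of 0.19 (7 genes), 0.12 (35), 0.11 (33), 0.11 (10) and 0.19 (3 genes) in the same bins, and their own correlation with length was -0.15 (n = 88). It was -0.24 with coding length. The member medians were above those of other genes in every bin, by the least in the bin from 500 bases.

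**Figure D4:**
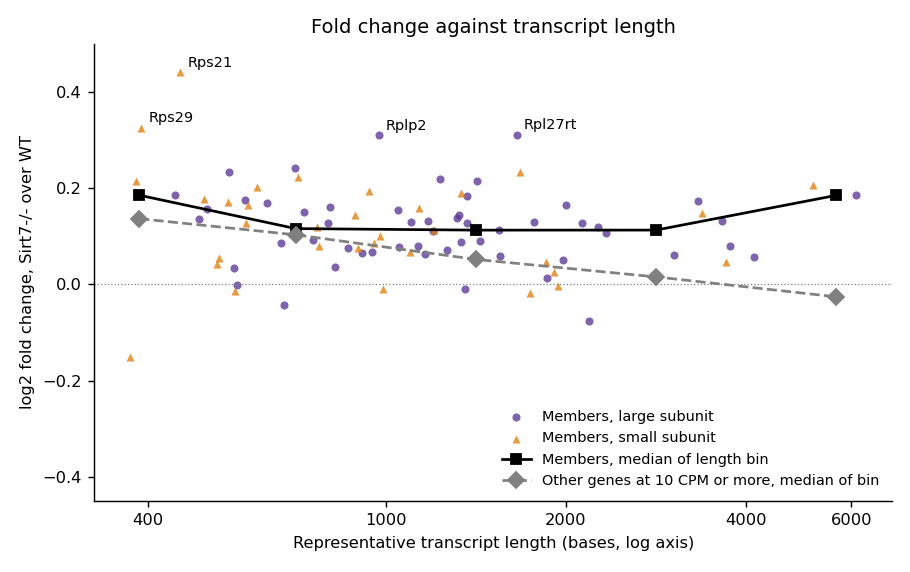
Log2 fold change of each tested member, Sirt7-/- over WT (vertical axis), against the length of its representative transcript (horizontal axis, bases, log axis), with medians by length bin for members and for other genes at 10 CPM or more. The medians of other genes go down from 0.14 to -0.03 along the axis, whereas those of the members lie between 0.11 and 0.19.

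When the trend with length was removed from each library, using genes that are not members, the median log2 fold change of the members was 0.08. Over all genes tested it was -0.0034. The removal was partial, since among other genes at 10 CPM or more the correlation with length was then -0.08, and -0.16 with coding length. In the bin from 500 to below 1000 bases the member median went from 0.12 to 0.06, where other genes had been at 0.10. No member was called by edgeR in that fit, where 0.0861% of all genes were called and 0.0405% were higher. Rps21 was then at 0.37, Rplp2 at 0.26 and Rps29 at 0.25. Large subunit genes had a median of 0.09 and small subunit genes of 0.07.

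Paralogues were described as the share of a pair's counts that fell on the copy. The pairs are of interest in the male germ line because Rpl10, Rpl36a, Rpl39 and Rps4x are on the X chromosome, which is silenced in meiosis, while Rpl10l, Rpl36al, Rpl39l and Rps4l are on autosomes. Rpl39l is known from spermatogenic cells, and its coding sequence is shown against that of Rpl39 to make clear that reads can be assigned. Both are given from base 1 to base 150 of the coding sequence, which is the length of 1 read, and capitals mark bases of the copy that differ.
Rpl39, locus chrX:36345092-36349130, minus strand: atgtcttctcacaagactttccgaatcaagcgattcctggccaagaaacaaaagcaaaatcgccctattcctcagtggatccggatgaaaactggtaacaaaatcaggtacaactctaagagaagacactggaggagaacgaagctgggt
Rpl39l, locus chr16:9949671-9992780, plus strand: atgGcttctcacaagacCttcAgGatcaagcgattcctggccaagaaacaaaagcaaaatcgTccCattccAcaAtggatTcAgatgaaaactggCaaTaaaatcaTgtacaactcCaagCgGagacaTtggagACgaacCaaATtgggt
Over these 150 bases 22 differ, and over the whole coding sequence 130 of 153 are identical.

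Rpl39l took 48.4% (95% Wilson interval 46.7 to 50.2) and 43.8% (42.1 to 45.6) of the pair's counts in Sirt7-/-, against 48.4% (46.6 to 50.2) and 47.1% (45.3 to 48.9) in WT. These intervals cover counting error only. The genotypes overlapped, and the library Sirt7-/- 2 was lowest. Rpl39l was at 68.1 and 60.8 CPM in Sirt7-/- and at 63.0 and 62.8 CPM in WT, so that in these cells it was counted about as often as Rpl39, which was at 72.6 and 78.0 CPM in Sirt7-/- and 67.2 and 70.4 CPM in WT.

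Rps4l, a single-exon copy of Rps4x with 80.0% of coding bases identical, took 54.1 and 52.1% of the pair's counts in Sirt7-/- and 51.7 and 47.5% in WT. The means were 53.1% in Sirt7-/- and 49.6% in WT. Their difference of 3.50 percentage points stands beside a pooled SD of 2.34 within genotypes, and a gap of under 1 point separated the nearest libraries of the genotypes. Rps4l was at 284 and 259 CPM in Sirt7-/- and at 254 and 221 CPM in WT (0.19 ± 0.08, adjusted p = 0.540 by edgeR), whereas Rps4x was at 240 and 238 CPM in Sirt7-/- and at 238 and 244 CPM in WT.

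Rpl10l, which is known to stand in for Rpl10 in meiosis, took 16.0 and 13.0% of the pair's counts in Sirt7-/- and 14.7 and 14.1% in WT, with the Sirt7-/- libraries on either side of the WT libraries. No coding stretch of Rpl10l occurs elsewhere, whereas 82.5% of those of Rpl10 do, and the treatment of reads with several places is unknown, so the share is uncertain. Rpl36al took only 1.47 and 1.48% in Sirt7-/- and 1.69 and 1.72% in WT, on 48 to 55 counts a library. Its difference of -0.23 percentage points is smaller than the half-width of the widest counting interval, 0.47 points.

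**Figure D5:**
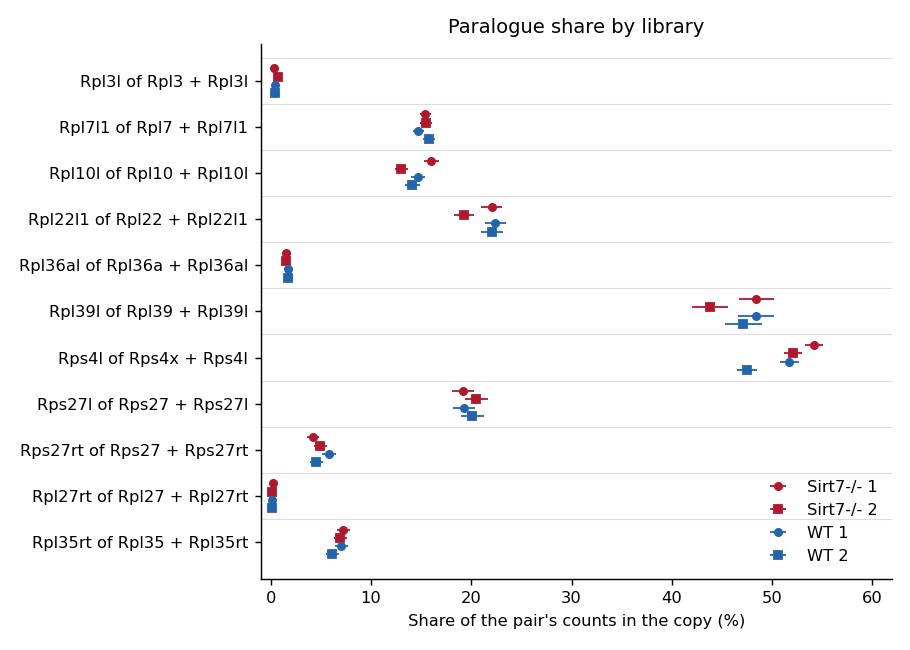
Share of the counts of each of 11 pairs that fell on the copy (horizontal axis, %) in each library, with 95% Wilson intervals. Rpl39l and Rps4l hold 43.8 to 54.1% of their pairs, and Rpl3l, Rpl27rt and Rpl36al under 2%.

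Among autosomal pairs, Rpl22l1 took 22.0 and 19.3% in Sirt7-/- and 22.4 and 22.0% in WT. Rpl7l1, whose human counterpart is known as a factor of large subunit assembly, took 15.4 and 15.5% in Sirt7-/- and 14.7 and 15.8% in WT. Rpl3l, which replaces Rpl3 in muscle, took 0.34 and 0.68% in Sirt7-/- and 0.47 and 0.39% in WT. Rpl27rt took at most 0.19% of its pair in any library. For none of these pairs did the genotypes separate upwards, and Rpl22l1 had both Sirt7-/- libraries below both WT libraries by a margin within the counting intervals.

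The Rps27 group shows where counts cannot be assigned. Rps27l, a target of p53, differs from Rps27 in 35 of the first 150 coding bases, marked in capitals.
Rps27, locus chr3:90119819-90120977, minus strand: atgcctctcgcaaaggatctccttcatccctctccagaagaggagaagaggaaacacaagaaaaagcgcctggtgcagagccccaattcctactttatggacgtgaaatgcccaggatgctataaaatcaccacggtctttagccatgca
Rps27l, locus chr9:66853340-66856808, plus strand: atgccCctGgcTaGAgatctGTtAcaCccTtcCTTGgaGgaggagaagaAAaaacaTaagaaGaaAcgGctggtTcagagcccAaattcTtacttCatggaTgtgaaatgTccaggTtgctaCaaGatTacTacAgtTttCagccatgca
Rps27rt, a single-exon copy on chromosome 9, has 0 differences from Rps27 over all 252 coding bases, and Rpl35rt has 1 difference from Rpl35 over 369. Rps27l took 19.2 and 20.5% of its pair in Sirt7-/- and 19.3 and 20.1% in WT. The shares of Rps27rt (4.20 and 4.88% in Sirt7-/-, 5.79 and 4.48% in WT) and of Rpl35rt (7.24 and 6.92% in Sirt7-/-, 7.02 and 6.13% in WT) depend on how shared reads were counted. The median log2 fold change was 0.12 in the 15 members with at most 10% of coding stretches elsewhere and no exon shared with another gene. Among these, 11 had both Sirt7-/- libraries above both WT libraries, where 20.3% of all genes tested did. In the 31 members with over 50% of coding stretches elsewhere the median was 0.11.

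Genes that work with the ribosome showed smaller values as a group than the members, and had longer transcripts. The list had 36 translation genes, comprising elongation and initiation factors, mTOR pathway genes and transcription factors known to bind ribosomal protein promoters. Of these 0 passed with edgeR or DESeq2, and the median was 0.02. Their median transcript length was 3625.5 bases, against 1073.5 for the members. Other genes at 10 CPM or more with transcripts of 2000 to below 4000 bases also had a median of 0.02. The part of length in the smaller values was not tested. At an unadjusted p under 0.05 by edgeR, 5 of the 36 translation genes were higher in Sirt7-/- and 0 lower, where 4.48% of all genes were higher and 4.14% lower. The most abundant were the elongation factor genes Eef1a1, at 6402 and 6202 CPM in Sirt7-/- and 6219 and 6212 CPM in WT, and Eef2, at 3561 and 3512 CPM in Sirt7-/- and 3571 and 3619 CPM in WT. Both are known TOP mRNAs, and in both the log2 fold change (0.02 ± 0.06 and -0.02 ± 0.06) was within its SE. The smallest p-values in the list were those of Eif4ebp1, a translation repressor that mTOR inactivates (0.23 ± 0.06), and Tpt1, a further TOP mRNA (0.21 ± 0.06). Fau, which encodes a small subunit protein as a fusion and so carries another symbol, was at 385 and 388 CPM in Sirt7-/- and at 357 and 344 CPM in WT (0.14 ± 0.06), with no overlap between the genotypes.

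Other lists of short housekeeping transcripts gave the following. The 94 respiratory chain genes tested had a median of 0.10, with 48 separated upwards, or 51.1%. The 77 mitochondrial ribosomal protein genes had a median of 0.05 with 25 separated upwards (32.5%), and the 81 ribosomal protein pseudogenes tested had 0.12 with 42 (51.9%). In none of the 3 lists did a gene pass with edgeR, and DESeq2 called 1 pseudogene. At an unadjusted p under 0.05 by edgeR, 17 of the 94 respiratory chain genes, 5 of the 77 mitochondrial ribosomal protein genes and 12 of the 81 pseudogenes were higher in Sirt7-/-. In each list 0 were lower. Over all genes tested, 20.3% separated upwards, and 4.48% were higher and 4.14% lower at that p. The mitochondrial ribosomal protein genes were nearest to these shares. Reads of a pseudogene and of its parent gene may be counted for either, so the pseudogenes are not a separate measurement.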

How the data were processed

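The table held raw counts per gene for the 4 libraries. The authors had made the deposited counts from strand-specific mRNA libraries, sequenced as paired reads of 150 bases, by alignment to GRCm39 with HISAT2 and counting with featureCounts. Their versions and annotation, whether strand was used, and how multi-mapped reads were handled: not given in the sources used here. The gene models used here were GENCODE M39 (78263 of 78275 IDs matched). Counts were filtered with filterByExpr (minimum count 10), scaled by TMM and tested with edgeR 4.0.16 in R 4.3.3 (quasi-likelihood F test, no covariates, Benjamini-Hochberg over 19736 genes, called under 0.1). DESeq2 1.42.0 was the alternative, with the other scalings, filters and fits given in the closing section. Log2 fold changes are Sirt7-/- over WT ± SE, on the TMM scale, as are CPM. A representative transcript was the Ensembl canonical one where it codes a consensus coding sequence.

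Named genes were those called by either test, the 3 highest and 3 lowest in level, the 4 largest and 4 smallest fold changes, the paralogue pairs and 16 genes set by role. The members, lists and rules were chosen with earlier results of these data known, so that none is independent support. The edgeR script was tested on simulated counts. Values of 2 genes of these lists are not reported here.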

Additional observations from a re-analysis of the deposited data

How the results depend on the processing

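The count of ribosomal protein genes called was 0 with edgeR after scaling by total counts or by DESeq2's size factors, without a count filter, with a 1 CPM minimum in 2 libraries, at the stricter threshold of 0.05 and with the length trend removed. It was 3 with the DESeq2 Wald test and 3 with the replicate number as a block (Rps21, Rps29 and Rplp2 in each), where the block raised the calls over all genes to 236. Over 19736 genes, the deviations of same-numbered libraries from their group means had a correlation of 0.04. Among members, the median log2 ratio of library 1 over library 2 was 0.05 in Sirt7-/- and 0.05 in WT. The labels do not say whether the number marks a shared batch. Leaving out 1 library in turn gave 0 to 15 calls, and the lone library of a genotype was then assumed to vary like the other genotype.

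The median log2 fold change of the members lay between 0.076 and 0.15 when 1 library was left out. It was 0.077 with the length trend removed, where the lowess offset was fitted on other genes, including those below 10 CPM. That offset did not take out the whole trend, since a correlation with length of -0.08 remained among other genes at 10 CPM or more. The summed share had log2 ratios of 0.09 to 0.15, and the correlation with transcript length was -0.27 to -0.04. The difference between large and small subunit genes was -0.020 to 0.0060 when 1 library was left out. It reversed without Sirt7-/- replicate 1, at -0.020, was also below 0 without Sirt7-/- replicate 2, without WT replicate 2 and with the block, and the cause was not tested. Under the restriction to the 15 members with nearly unique sequence, an alternative chosen after seeing the data, 11 separated upwards. Of all genes tested, 20.3% did. For the Rpl36a and Rpl36al pair the difference in share was -0.05 points per kb of transcript. Among 39 named genes, 12 alternative values crossed the threshold, all from not called to called, and 416 did not.

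Rpl24, Rpl27rt, Rpl36al, Rpl3l and Rps23rg1 had too few counts to show differences of the size seen in other members.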
